A study of Mus musculus with 7 samples.

Results

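The data describe 9 genes from 3 families of immediate early genes, read from RNA-seq of mouse embryonic fibroblasts (MEFs): the transcription factors Egr1, Egr2 and Egr3, the nuclear receptors Nr4a1, Nr4a2 and Nr4a3, and the immediate early response genes Ier2, Ier3 and Ier5. They were chosen by gene symbol, and each stood on 1 of the 49382 rows of the table. The cells were wild type fibroblasts from embryos of day 13.5 to 14.4, used at passages 3 to 7. There were 7 libraries, 1 for each of the following cultures: an untreated control, oxidative stress (10 μM sodium arsenite, 3 h), osmotic stress (100 mM added NaCl, 3 h), ER stress (1 μM thapsigargin, 10 h), glucose depletion (10 h), glutamine depletion (10 h) and hypoxia (0.1% oxygen, 10 h). No culture was repeated, so no difference could be set against a spread between replicates, neighbouring levels cannot be told apart by one, and no p-value is given.

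Immediate early genes are transcribed in response to a signal without new protein synthesis, mostly through factors that are already on their promoters and are switched on by kinases. In fibroblasts the classical inducers are serum and growth factors, and the transcripts are short-lived. Serum response factor acts at the CArG box of many of these promoters, and CREB at the cAMP response element of others. EGR proteins are zinc finger activators of GC-rich promoters, held in check by the corepressors NAB1 and NAB2. NR4A proteins are orphan receptors whose activity is set largely by their amount. IER2 and IER5 are related to each other by sequence, IER5 is known to promote the activity of heat shock factor HSF1, and IER3 is an unrelated protein linked to cell survival.

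Levels are given in TPM, a transcript's share of its library scaled to a fixed total and corrected for transcript length, so levels of different genes may be compared. The sequencing depth is unknown, since TPM keeps no read count. Changes against the control are differences in log2(TPM + 1), which understate the change of genes with low levels. A gene is said to have risen or fallen where it passed 2-fold on this scale. As background serve 12909 genes whose mean level in these libraries reached 2 TPM. 8 of the 9 genes are among them, and Nr4a3, with a mean of 1.78 TPM, is not. All 10 fibroblast markers were above that limit, among them Col1a1 and Vim, and their summed level ran from 6764 TPM in ER stress to 14001 TPM in hypoxia, with 12427 TPM in the control. The markers of macrophages, endothelium and epithelium summed to between 2.32 and 14.6 TPM a list. In osmotic stress the macrophage sum (14.6 against 8.72 TPM in the control) and the endothelial sum (5.37 against 4.02) were highest. The epithelial sum was highest in ER stress (11.6 against 5.90). Of the 5 macrophage markers 1 passed the limit, Cd68, with 7.21 TPM in the control. Ptprc was at 0 TPM in the control and at 0.280 TPM in oxidative stress. The erythroid list stayed at or below 0.503 TPM, while neuronal and muscle markers that cultured fibroblasts also express reached 148 and 36.2 TPM. In bulk RNA, fewer cells of a type and less RNA per cell cannot be told apart. Glucose and glutamine depletion involved new medium, while arsenite, NaCl and thapsigargin were added to the cultures. Whether the control received new medium is not given in the sources used here, so a change of medium and the depletion itself cannot be told apart.

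Most of the genes rose in glutamine depletion and in oxidative stress, and fewer passed 2-fold in the other 4 conditions. With glutamine depletion 7 of the 9 rose and none fell, against 3.21% of the background up and 3.21% down. In oxidative stress 7 rose and none fell (3.94% up and 4.85% down in the background). Against the median of the 7 libraries instead of the control, 3 rose in oxidative stress and 6 in glutamine depletion, and at 3-fold 2 and 3 did. The members' median log2 change was 1.40 in glutamine depletion and 1.22 in oxidative stress, where that of the background was -0.09 and -0.16. In osmotic stress 3 genes rose and none fell (background 3.08% up and 8.76% down), with a median of 0.72 against -0.12. These were Ier3, Ier5 and Nr4a3. All 9 levels were above the control there, the lowest by 0.26 on the log2 scale, and 7 passed 1.5-fold. In ER stress 2 rose and 2 fell (8.6% up and 11% down), and its median of 0.13 stood over changes from -2.14 to 2.51. In glucose depletion 2 rose (1.83% up and 2.41% down) and in hypoxia 1 rose (3.57% up and 2.64% down), and none fell in either. Their medians were 0.26 and 0.05, against -0.02 and -0.05 in the background. Comparisons with the control share its 1 library, so a chance value there enters all 6 of them.

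**Figure D1:**
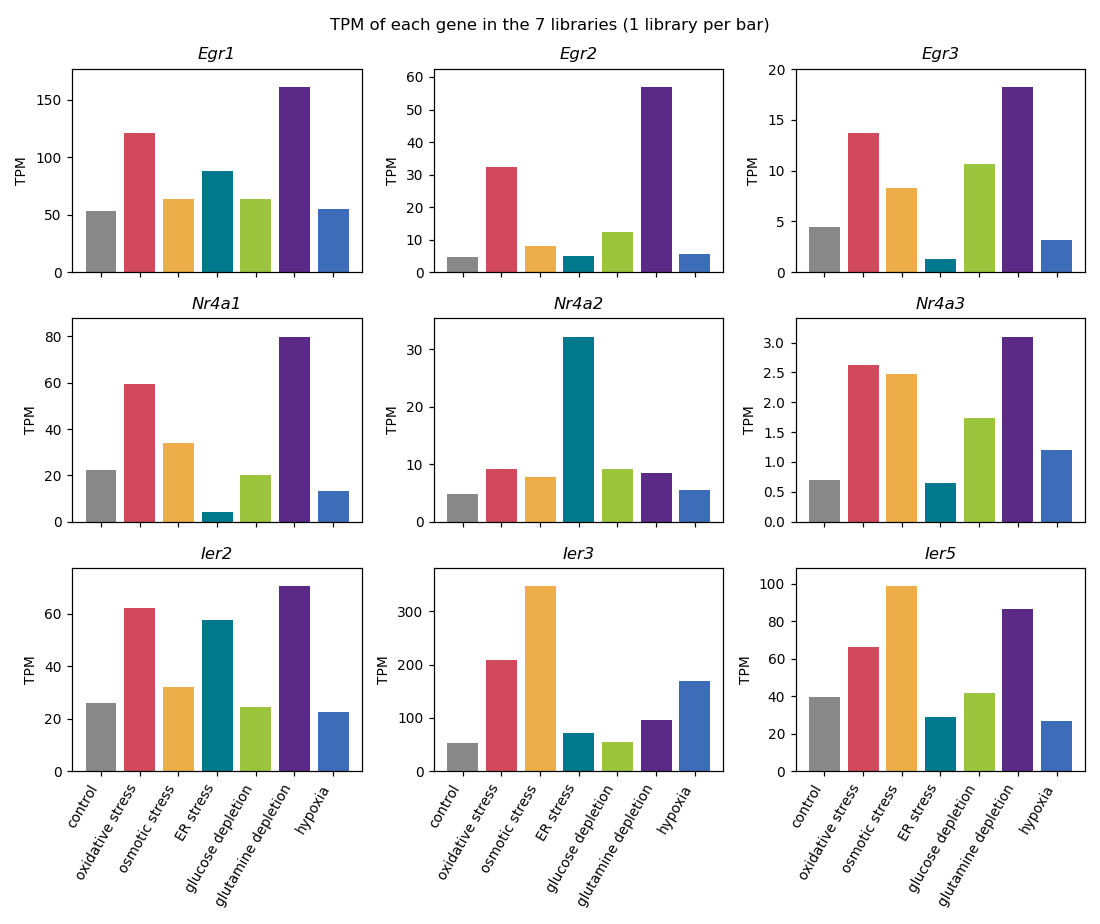
Bars give the TPM of each gene in each of the 7 libraries, 1 library a bar, with an axis from 0 for each gene. Egr1, Egr2, Egr3, Nr4a1, Nr4a3 and Ier2 are highest in glutamine depletion, Nr4a2 in ER stress, and Ier3 and Ier5 in osmotic stress.

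**Figure D2:**
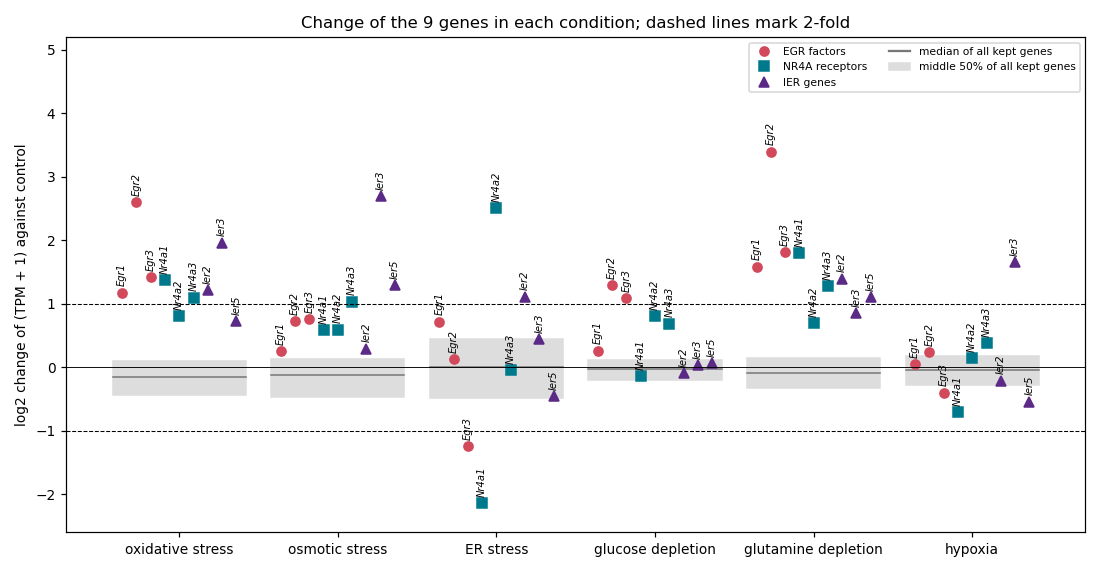
Points give the log2 change of (TPM + 1) of the 9 genes against the control, by condition, with the middle 50% of the 12909 background genes in grey and their median as a line. In oxidative stress, osmotic stress and glutamine depletion all 9 points lie above the grey box, and in ER stress they run from -2.14 to 2.51.

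Among the EGR genes, Egr1 was the most abundant in every library and Egr2 had the largest change against the control, in glutamine depletion. Egr1, the classical serum-induced zinc finger factor, was at 52.9 TPM in the control, 121 in oxidative stress, 63.4 in osmotic stress, 87.7 in ER stress, 63.7 after glucose depletion, 161 after glutamine depletion and 54.8 in hypoxia. Glutamine depletion and oxidative stress stand above the rest, and the control is the lowest of the 7. The log2 change was 1.58 in glutamine depletion, 1.17 in oxidative stress and 0.72, short of 2-fold, in ER stress. Egr1 lies on chromosome 18 of GRCm38, from 34859823 to 34864984.

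Egr2, a factor known for its part in hindbrain patterning and myelination, was at 4.50 TPM in the control, 32.2 in oxidative stress, 8.06 in osmotic stress, 5.01 in ER stress, 12.4 after glucose depletion, 56.9 after glutamine depletion and 5.48 in hypoxia. Glutamine depletion gave 12.7 times the control level, the largest ratio of the 9 genes in any condition, with a log2 change of 3.40 that 0.527% of background genes exceeded. Oxidative stress followed with a log2 change of 2.60 and glucose depletion with 1.29, while ER stress (0.13) and hypoxia (0.24) stayed near the control. Egr2 lies on chromosome 10, from 67535475 to 67542188.

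Egr3, a factor needed for muscle spindles, was at 4.48 TPM in the control, 13.7 in oxidative stress, 8.25 in osmotic stress, 1.30 in ER stress, 10.6 after glucose depletion, 18.2 after glutamine depletion and 3.15 in hypoxia. It started from the level of Egr2 and followed the same order in the upper 4 libraries, but in ER stress it fell by 1.25 on the log2 scale. It rose in glutamine depletion (1.81), oxidative stress (1.42) and glucose depletion (1.09). Egr2 and Egr3 were the members that rose in glucose depletion, and neither passed 2-fold there once the pseudocount was raised to 5 TPM, nor did Egr3 in ER stress (-0.59) or oxidative stress (0.98). Egr3 lies on chromosome 14, from 70077203 to 70082614.

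The make-up of the EGR family moved with these changes. Egr1 held 85.5% of the summed EGR level in the control, 68.2% in glutamine depletion and 93.3% in ER stress. Over the same libraries Egr2 held 7.26%, 24.1% and 5.33%, and Egr3 7.24%, 7.73% and 1.39%. The fourth family gene, Egr4, was below 1 TPM in each library, from 0 in hypoxia to 0.763 in glutamine depletion. Nab2, the corepressor that EGR factors are known to induce, did not follow Egr1, with log2 changes of -0.72 in glutamine depletion and -0.80 in oxidative stress, and fell in ER stress (-1.35, from 90.4 to 34.9 TPM). Nab1 had -0.36, -0.50 and -0.97 in these 3 conditions.

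The NR4A genes split in ER stress. Nr4a1, also known as Nur77, was at 22.3 TPM in the control, 59.3 in oxidative stress, 34.0 in osmotic stress, 4.28 in ER stress, 20.2 after glucose depletion, 79.9 after glutamine depletion and 13.2 in hypoxia. Its level in glutamine depletion was 18.7 times that in ER stress, the widest range among the 9 genes. It rose in glutamine depletion (log2 change 1.79) and oxidative stress (1.37) and fell by 2.14 in ER stress, below 97.8% of background genes. Hypoxia gave -0.71 and glucose depletion -0.14. Nr4a1 lies on chromosome 15, from 101254269 to 101274795.

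Nr4a2, also known as Nurr1 and required for dopaminergic neurons, was at 4.83 TPM in the control, 9.20 in oxidative stress, 7.79 in osmotic stress, 32.2 in ER stress, 9.16 after glucose depletion, 8.44 after glutamine depletion and 5.46 in hypoxia. ER stress stands alone at 6.67 times the control, 3.50 times the next library, with a log2 change of 2.51 that 1.77% of background genes exceeded. The other 5 conditions ran from 0.15 to 0.81 on the log2 scale, all within 2-fold. Nr4a2 lies on chromosome 2, from 57106830 to 57124003 on the minus strand.

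Nr4a3, also known as Nor1, was at 0.698 TPM in the control, 2.63 in oxidative stress, 2.47 in osmotic stress, 0.640 in ER stress, 1.73 after glucose depletion, 3.10 after glutamine depletion and 1.21 in hypoxia. These levels are close to the pseudocount, and the log2 changes past 2-fold, 1.27 in glutamine depletion, 1.10 in oxidative stress and 1.03 in osmotic stress, became 2.00, 1.78 and 1.69 with a pseudocount of 0.1 TPM and 0.51, 0.42 and 0.39 with 5 TPM. The direction was the same with each of them. Nr4a3 lies on chromosome 4, from 48045153 to 48086447.

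The summed NR4A level was 27.8 TPM in the control and 37.1 in ER stress, but the share of Nr4a1 was 80.1% in the control and 11.5% in ER stress, and that of Nr4a2 17.4% and 86.8%. In the other 5 conditions Nr4a1 held between 65.0% and 87.4%. Of the receptors that NR4A proteins can pair with, Rxra had a log2 change of -0.89 and Rxrb of 0.93 in ER stress, both short of 2-fold. In this library the summed fibroblast markers were also lowest, 3 of the 10 fell, and Lum, a matrix proteoglycan, changed by -2.33. The summed neuronal markers were highest there, and Tubb3 rose (log2 change 2.24). The part of these marker changes in the NR4A result was not tested.

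**Figure D3:**
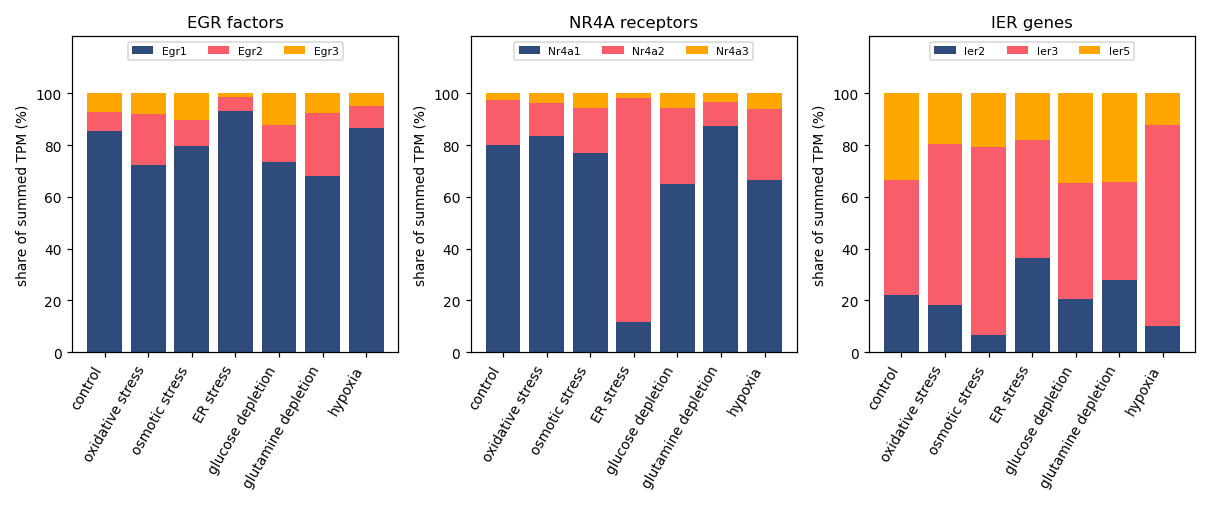
Stacked bars give each gene's share, in percent, of the summed TPM of its family in each of the 7 libraries. Nr4a2 holds 86.8% of the NR4A sum in ER stress and at most 29.5% in the other libraries.

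The promoters of the 3 NR4A genes are shown because these genes moved apart in ER stress and their windows share a sequence feature. RefSeq windows of 300 bases on GRCm38.p6, from 250 bases before to 50 after an annotated start, were found for 6 of the 9 genes (Egr2, Nr4a1, Nr4a2, Nr4a3, Ier3 and Ier5). The windows of Nr4a1, Nr4a2 and Nr4a3 each held TGACG, the half-site of the cAMP response element, 4 times, counting both strands. It was found at least once in 20.8% of all 32851 windows, and 4 times or more in 0.231% of them. Their GC content was 72.3%, 81.7% and 64.7%, against a median of 52.7%, and of the 6218 windows at least as GC-rich as that of Nr4a3, 0.563% held it 4 times or more. The cut of 4 is the count of the NR4A windows themselves, so these shares are a description and no test of rarity. Egr2 has 5 windows, of which 3 overlap and share 2 half-sites and 1 CArG box. Another window holds a different CArG box and no half-site, and the last holds neither. The 1 shown was picked because it holds both motifs. A CArG box is found in 1.63% of all windows. The stretches below stop before the start and leave out bases that lie in an exon of GENCODE M21, which removes 1 of the 4 half-sites of Nr4a3. They cover chr15:101266596-101266845 (plus strand, within an intron of longer Nr4a1 transcripts), chr2:57124004-57124253 (minus strand, upstream of Nr4a2), chr4:48045055-48045152 (plus strand, upstream of Nr4a3) and chr10:67537619-67537868 (plus strand, within an intron of longer Egr2 transcripts). Each is written 5′ to 3′ on the strand of its gene, and capitals mark TGACG, read as CGTCA where it is on the opposite strand, and in Egr2 also the CArG box.
Nr4a1: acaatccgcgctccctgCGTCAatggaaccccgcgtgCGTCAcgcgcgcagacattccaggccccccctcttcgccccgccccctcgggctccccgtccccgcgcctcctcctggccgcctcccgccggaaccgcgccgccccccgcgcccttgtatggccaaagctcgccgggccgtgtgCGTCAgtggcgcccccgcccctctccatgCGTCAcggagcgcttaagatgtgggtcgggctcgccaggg
Nr4a2: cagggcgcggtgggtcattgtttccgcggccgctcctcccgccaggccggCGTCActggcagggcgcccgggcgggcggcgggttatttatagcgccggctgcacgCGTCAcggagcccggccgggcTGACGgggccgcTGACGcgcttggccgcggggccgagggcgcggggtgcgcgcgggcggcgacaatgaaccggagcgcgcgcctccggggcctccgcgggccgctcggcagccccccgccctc
Nr4a3: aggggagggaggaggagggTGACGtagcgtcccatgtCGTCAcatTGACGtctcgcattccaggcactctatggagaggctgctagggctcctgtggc
Egr2: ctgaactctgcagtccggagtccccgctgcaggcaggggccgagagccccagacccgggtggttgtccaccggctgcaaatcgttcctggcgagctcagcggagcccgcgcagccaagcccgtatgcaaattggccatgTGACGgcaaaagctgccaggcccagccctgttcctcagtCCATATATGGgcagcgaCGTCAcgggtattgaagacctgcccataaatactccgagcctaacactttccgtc

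The windows of these genes held 14 distinct TGACG sites, none of which overlapped a match to another motif searched. The EGR motif GCGNGGGCG, which 5.55% of all windows hold, was found 1 time in the Nr4a1 and 1 time in the Nr4a2 window. TATAAA (13.6% of all windows) was found in the Nr4a2 window, and the GC box GGGCGG (35.7%) in those of all 3 NR4A genes and in 2 of the 5 Egr2 windows. The windows of Ier3 and Ier5 held GGGCGG, 1 and 2 times, but not TGACG. A kappa B site, a motif of 8.46% of all windows, was found in the windows of Ier3 and Nr4a1 and in 1 of those of Egr2. The part of the heat shock element GAANNTTC (7.86% of windows), the AP-1 motif TGANTCA (7.81%) and the NGFI-B response element (1.51%) were in none of the windows of these 6 genes. A match of letters is a description and does not show that a factor was bound.

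**Figure D4:**
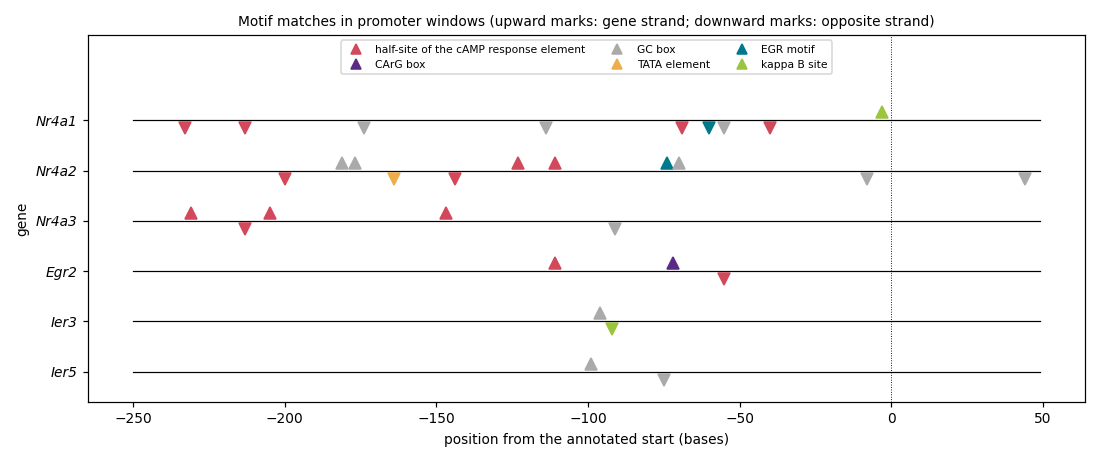
Marks give the position of each motif match, in bases from the annotated start, in the window of Nr4a1, Nr4a2, Nr4a3, Egr2, Ier3 and Ier5. For Egr2 1 of its 5 windows is drawn, picked for holding both a CArG box and half-sites. The 3 NR4A windows carry 4 half-sites of the cAMP response element each, those of Ier3 and Ier5 carry none.

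The IER genes rose in different conditions. Ier2, a nuclear protein induced by serum, was at 26.2 TPM in the control, 62.2 in oxidative stress, 32.3 in osmotic stress, 57.7 in ER stress, 24.5 after glucose depletion, 70.6 after glutamine depletion and 22.4 in hypoxia. The 3 high libraries were those of glutamine depletion (log2 change 1.40), oxidative stress (1.22) and ER stress (1.11), and the other 4 lay between 22.4 and 32.3 TPM. Ier2 was with Nr4a2 the member that rose in ER stress. It lies on chromosome 8, from 84661331 to 84662852 on the minus strand.

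Ier3, also known as IEX, was at 52.9 TPM in the control, 209 in oxidative stress, 347 in osmotic stress, 72.0 in ER stress, 54.1 after glucose depletion, 95.9 after glutamine depletion and 169 in hypoxia. Osmotic stress gave the highest level of any member in any library, 6.56 times the control, with a log2 change of 2.69 that 1.07% of background genes exceeded. Oxidative stress gave 1.96 and hypoxia 1.66, which made Ier3 the member that rose in hypoxia. In glutamine depletion, where 7 members rose, Ier3 stayed within 2-fold at 0.85. Ier3 lies on chromosome 17, from 35821684 to 35822923.

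Ier5 was at 39.8 TPM in the control, 66.5 in oxidative stress, 98.7 in osmotic stress, 28.7 in ER stress, 41.7 after glucose depletion, 86.5 after glutamine depletion and 27.0 in hypoxia. It rose in osmotic stress (log2 change 1.29) and glutamine depletion (1.10), and oxidative stress gave 0.73, short of 2-fold. Of 10 heat shock genes, 7 rose in oxidative stress, 2 in osmotic stress and 0 in glutamine depletion (3.94%, 3.08% and 3.21% of the background). Hspa1a, nearly identical to Hspa1b so that the split of reads between them is uncertain, had log2 changes of 5.01, 2.62 and -0.91 in these 3 conditions. In ER stress 3 of the 10 heat shock genes fell and 0 rose (11% and 8.6% of the background), most of all Hspa1a (-1.45). There Ier5 lay at -0.46. The related gene Ier5l fell in ER stress (-1.43) and lay at -0.82 in osmotic stress. Ier5 lies on chromosome 1, from 155096361 to 155099636 on the minus strand.

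Together the IER genes went from 119 TPM in the control to 478 TPM in osmotic stress, and Ier3 made up 72.6% of that sum. In hypoxia Ier3 held 77.4% of 218 TPM, as Ier2 and Ier5 stood at -0.21 and -0.54 on the log2 scale.

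Conditions with the same time of treatment were set against each other in 7 pairs, with each pair's background in parentheses. At 3 h, oxidative stress was above osmotic stress by more than 2-fold for 1 member, Egr2 (32.2 against 8.06 TPM, log2 difference 1.87), and below it for none (background 7.86% higher and 3.9% lower). Ier3 and Ier5 had differences of -0.73 and -0.56, while Egr1, Ier2 and Nr4a1 had 0.92, 0.93 and 0.78. All 3 EGR and all 3 NR4A genes had a positive difference, while within the IER genes the signs differed.

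At 10 h, glutamine depletion was above glucose depletion by more than 2-fold for 5 members (3.12% higher and 2.37% lower), namely Egr1, Egr2, Nr4a1, Ier2 and Ier5, with differences from 1.04 to 2.11. Both cultures received a depleted medium for the same time. Nr4a2 differed by -0.10 between them, with 8.44 and 9.16 TPM. Against hypoxia, glutamine depletion was higher for 6 members and lower for none (4.76% higher and 5.41% lower), and Ier3 had -0.81.

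Between glutamine depletion and ER stress 5 members were higher and 1 lower (9.94% higher and 9.75% lower). Nr4a1 differed by 3.94, the largest of all these differences, Egr2 by 3.27 and Egr3 by 3.06, while Nr4a2 differed by -1.81 and Ier2 by 0.29. ER stress against glucose depletion gave 2 members higher and 3 lower (9.02% higher and 9.71% lower), with Nr4a2 at 1.71 and Ier2 at 1.20 against Egr3 at -2.34, Nr4a1 at -2.00 and Egr2 at -1.16. Against hypoxia, ER stress had 2 higher, Nr4a2 and Ier2, and 2 lower, Nr4a1 and Ier3 (10.9% higher and 11.5% lower). Hypoxia was above glucose depletion for Ier3 (1.63) and below it for Egr3 (-1.49) and Egr2 (-1.05) (4.19% higher and 2.77% lower). With a pseudocount of 5 TPM these last differences were -0.94 and -0.73, within 2-fold. The same held for Egr2 in ER stress against glucose depletion (-0.80), Nr4a1 in ER stress against hypoxia (-0.97), Ier5 in glutamine against glucose depletion (0.97) and Nr4a3 in glutamine depletion against ER stress (0.52).

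**Figure D5:**
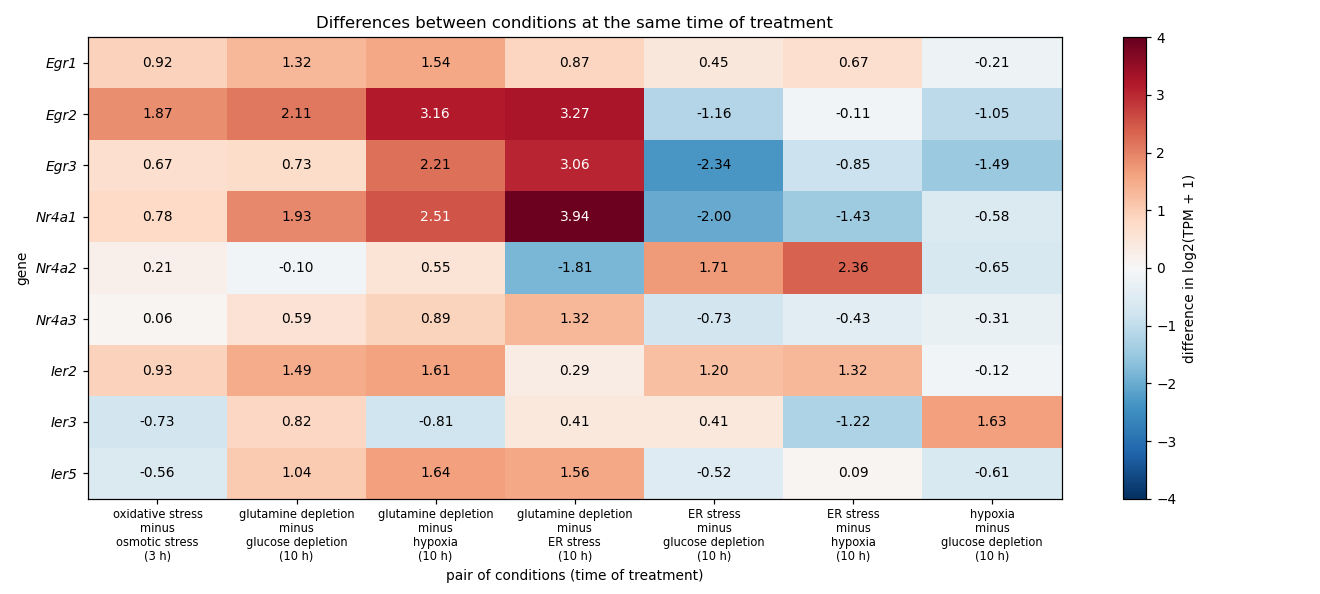
Cells give the difference in log2(TPM + 1) of each of the 9 genes between 2 conditions of equal treatment time, red where the first is higher and blue where the second is. The column of glutamine depletion against ER stress runs from -1.81 for Nr4a2 to 3.94 for Nr4a1.

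Other immediate early genes were read from a list of 22, of which 21 passed the expression limit. In oxidative stress 12 of the 21 rose and 1 fell, in glutamine depletion 10 rose and none fell, in osmotic stress 9 rose and 3 fell, in ER stress 4 rose and 2 fell, and in glucose depletion and hypoxia none passed 2-fold. In the background, 3.94% rose and 4.85% fell in oxidative stress, 3.21% and 3.21% in glutamine depletion, and 3.08% and 8.76% in osmotic stress. The shares were 8.6% and 11% in ER stress, 1.83% and 2.41% in glucose depletion, and 3.57% and 2.64% in hypoxia. The listed genes' median log2 changes were 1.10, 0.99, 0.74, -0.23, 0.04 and -0.14, in the same order. Those of the background were -0.16, -0.09, -0.12, 0, -0.02 and -0.05. The largest rise in glutamine depletion was that of Ptgs2, which encodes the inducible cyclooxygenase (2.98), and in oxidative and ER stress that of Atf3, a stress-induced repressor (4.47 and 4.81). In osmotic stress Csrnp1 rose most (2.49) and Klf2 fell most (-2.34). Fos, the textbook immediate early gene, stayed within 2-fold in all 6 conditions, from -0.91 in ER stress to 0.53 in oxidative stress, at 4.51 to 14.0 TPM. Treated cultures were collected at 3 h or 10 h, so an earlier and short-lived rise could not be seen.

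Transcripts of serum response factor, CREB and their cofactors stayed within 2-fold. None of the 6 genes of serum response factor and its cofactors and none of the 6 of CREB and its coactivators passed 2-fold in any condition. In glutamine depletion all 6 genes of the serum response factor list were above the control, with a median log2 change of 0.51 against -0.09 in the background. Srf itself was highest in glutamine depletion (62.7 TPM against 35.3 in the control, log2 change 0.81). Crem, which CREB is known to induce, ran from -0.33 to 0.31. Of 8 CREB target genes, 3 rose in oxidative stress, 2 rose and 1 fell in osmotic stress, and 1 each rose in ER stress and glutamine depletion. In the background 3.94% rose in oxidative stress, and 3.08% rose and 8.76% fell in osmotic stress. The share that rose was 8.6% in ER stress and 3.21% in glutamine depletion. Areg was the gene that rose in ER stress (2.05) and in glutamine depletion (1.44), and it was among the 3 of oxidative stress (1.95). Untreated cells held 0.532 TPM of Areg, less than the pseudocount. Only the libraries where Areg rose held more than 2 TPM of it. Its place in the background depends on them, so these rises are no independent result. Gem, a small GTPase, rose most of the CREB targets in osmotic stress (2.84).

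Of 7 genes known as EGR1 targets, 1 rose in glutamine depletion and in oxidative stress, the growth factor gene Pdgfb (log2 changes 3.18 and 1.32, from 0.824 TPM in the control to 15.5 and 3.55). None of the 7 fell in these 2 conditions, and their medians were 0.92 and 0.32. Pdgfb was below the 1 TPM pseudocount in the control. Its place above the 2 TPM limit rests on the glutamine depletion library, so its rise there is no independent result. In ER stress 1 of the 7 fell, Nab2. Of 9 NF-kB target genes, a pathway known to induce Ier3, 1 rose in osmotic stress (Tnfaip3, 1.17) and none in oxidative stress, where 1 fell (Cxcl1, -1.36). In hypoxia Tnfaip3 rose (1.20) and Ccl2 fell (-1.04). The largest rise of Tnfaip3 was in glutamine depletion (1.69), where Ier3 stayed within 2-fold. In ER stress 2 of the 9 rose, most of all Nfkb2 (1.38), and 1 fell. Of 8 p53 targets, 3 fell in osmotic stress and 1 rose in oxidative stress. The 1 that rose was Btg2 (1.05), which was also among those that fell in osmotic stress (-1.26). Btg2, the CREB target Dusp1 and Zfp36 are also on the list of other immediate early genes, so these counts share genes. Among 6 factors that bind AU-rich elements in short-lived transcripts, Zfp36 rose in oxidative stress (1.38) and Zfp36l1 fell in ER stress (-1.04), and no other change passed 2-fold. The background shares of each condition are those given with the members' counts. In lists this short, counts of 1 are given as a description.

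Over the 7 libraries, the members fell into partly separate patterns of log2(TPM + 1). These Pearson correlations rest on 7 points that share no replicate and are given as a description. Of the 36 pairs of members, 10 had r above 0.8 and 6 were below 0. The most alike were Egr3 and Nr4a1 (0.94) and Egr1 and Ier2 (0.93), and the least alike Nr4a1 and Nr4a2 (-0.54). Ier3 had r of 0.09 with Egr1.

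Among 6755 other background genes with a range of at least 1 on the log2 scale, the pattern most like that of Egr2 was that of Il11, a cytokine gene (r 0.99), followed by Rassf8 and Hbegf (both 0.98). Nr4a1 was most like Arc (0.99), itself an immediate early gene, which ran from 2.35 TPM in ER stress to 86.6 TPM in glutamine depletion, then Stk10 and B4galt1 (both 0.99). Egr1 was most like Cdk17 (0.99), Acvr1 and Slc4a7 (both 0.98), and those like Egr3 included Ank (0.99) and Tgfb1 (0.96). For Ier2 these were Ch25h (0.99), Gm14167 (0.98) and Siah1b (0.96), and for Ier5 they were Sgms2, Tnfsf11 (both 0.98) and Gm26982 (0.96). Nr4a2 was closest to the pseudogene AC166750.1 (0.99), Mipol1 and Dcaf10 (both 0.98). The nearest of Ier3 was the pseudogene Gm8034 at a lower r of 0.96, then Hmcn1 (0.95) and Gm13834 (0.92). Some of these genes were below the pseudocount in their lowest library: Gm8034 and Gm13834 at 0 TPM, Gm14167 at 0.546 and Gm26982 at 0.915 TPM.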

How the data were processed

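RNA-seq libraries (stranded mRNA protocol, paired reads of 76 bases) were made from MEFs, 1 per condition. The authors quantified the reads with Kallisto (version 0.43.1 in the submitters' processing notes), at default settings, against all GRCm38 cDNA of Ensembl release 90. The deposited values are TPM per gene, each the sum of that gene's transcripts. Samples were grouped by their treatment labels. Changes were computed as log2(TPM + 1) minus the control's value. Both the added 1 TPM and the limit of 2-fold were taken from the study's methods. With 1 library per condition no test was run, and depth and counting error are unknown.

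The members and gene lists were chosen with earlier results of these data known. The rule for named genes takes all members, the genes with the largest rise or fall in each list, Nab2, Srf, Fos, Atf3, Crem and Hspa1a, and the 3 genes most like each member by Pearson r, of which 1 is not reported here. Nab1, Rxra, Egr4, Col1a1, Vim, Cd68, Ptprc and Dusp1 fall outside this rule and were named after their values were seen. TPM sums to a fixed total, so a strong rise of some genes lowers the values of the rest. Locations and exons came from GENCODE M21, in which no exon of a member overlaps an exon of another gene. Promoter sequences came from RefSeq (GRCm38.p6), and motifs were searched on both strands. Alternatives tried were a pseudocount of 0.1 or 5 TPM, dropping the expression limit or raising it to 10 TPM, centring on the background median, leaving out mitochondrially encoded genes, 1.5-fold or 3-fold as threshold, the median of the 7 libraries as reference, and protein-coding genes as background. The scripts were tested on simulated data. Values were computed in Python 3.11.15 with pandas 2.3.3 and numpy 2.4.6, and plots drawn with matplotlib 3.10.9.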

Additional observations from a re-analysis of the deposited data

How the results depend on the processing

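The counts of members that rose or fell in the 6 conditions were within 1.5 times of those reported with a pseudocount of 0.1 TPM, without an expression limit, with centring on the background median and without mitochondrially encoded genes, and no member past 2-fold changed direction under any alternative run. With a pseudocount of 5 TPM, 5 rose in oxidative stress, 6 in glutamine depletion, 2 in osmotic stress and 0 in glucose depletion. In ER stress 1 fell with this pseudocount. A mean of at least 10 TPM required of the members left out Egr3 and Nr4a3. With it 5 rose in oxidative stress, 5 in glutamine depletion, 2 in osmotic stress and 1 in glucose depletion, and 1 fell in ER stress. At 1.5-fold, 7 rose in osmotic stress and 4 in glucose depletion, and 1 fell in hypoxia. At 3-fold, 2 rose in oxidative stress, 1 in osmotic stress, 1 in ER stress, 0 in glucose depletion and 3 in glutamine depletion, and 1 fell in ER stress. With the median of the 7 libraries as reference, 3 rose in oxidative stress, 1 in ER stress, 0 in glucose depletion and 0 in hypoxia, 1 fell in hypoxia, and the members' median was 0 in osmotic stress and -0.52 in ER stress. Among protein-coding genes the share past 2-fold in either direction was 1.04% in glucose depletion, against 4.24% of the whole background, 2.95% against 6.21% in hypoxia, 5.25% against 8.78% in oxidative stress and 3.75% against 6.41% in glutamine depletion. The causes of these differences were not tested. No paired analysis was possible because each condition had 1 library and the labels give no replicate numbers. Depth is unknown, so counting error could not be given for any level. The levels of Nr4a3, 0.640 to 3.10 TPM, and that of Egr3 in ER stress, 1.30 TPM, lie near the pseudocount.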
